A study of Homo sapiens with 6 samples.

Results

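The primary cilium transport and BBSome genes are 38 named genes of the machinery that builds and loads the primary cilium, and they were found by matching these gene names to the 56303 gene entries of the count table. All 38 were present once, and the rule that lists them uses names and no measured value. The members were nevertheless chosen with earlier results of these data known. They were compared in a human cell line, AGS, which was established from a gastric adenocarcinoma. The 3 siSRSF2 libraries come from cells in which SRSF2 was knocked down by siRNA, and the 3 WT libraries from cells labelled as wild type. SRSF2 is a splicing factor of the serine/arginine-rich family. All 6 libraries came from the same line under the same serum-containing culture, and the labels add no other allele, agent, dose or harvest time. The titles of the siRNA libraries read siSRSF without a gene number, while their genotype label names SRSF2. It is not stated whether WT cells received a control siRNA, or whether replicates were separate cultures, and the spread that the p-values rest on may therefore be technical.

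The primary cilium is a single microtubule-based projection that quiescent epithelial and stromal cells can form from a centriole, and it serves as a platform for Hedgehog signalling. Proteins enter it on trains of intraflagellar transport (IFT) particles: IFT-B, carried outward by kinesin-2, and IFT-A, which is needed for the return by dynein-2 and for the entry of many membrane proteins. The BBSome, a complex named after Bardet-Biedl syndrome, rides on these trains and carries membrane proteins out of the cilium, and the transition zone at its base limits what can pass. RFX transcription factors bind X-box motifs in the promoters of many cilium genes. Cilia themselves were not measured here, and in bulk RNA fewer cells expressing a gene and less RNA per cell cannot be told apart.

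Library totals ranged over 26610937 to 36651623 counts for siSRSF2 and 47518943 to 50021152 counts for WT, of which 23498 to 32500 (siSRSF2) and 32170 to 34157 (WT) fell on the 38 genes. Levels are in CPM, that is, counts scaled to a library size of 1e+06 after trimmed-mean (TMM) normalization, and 3 counts corresponded to 0.0630 to 0.110 CPM in 1 library, counting error only. A value after ± is the SD of the 3 libraries of a group. SRSF2, the targeted gene, had 586, 840 and 861 counts in siSRSF2 libraries and 2122, 2118 and 2093 counts in WT libraries, or 21.6 to 24.9 CPM in siSRSF2 libraries against 44.1 to 46.4 CPM in WT libraries. It shares 36.66% of its exon bases with MFSD11 on the opposite strand, and reads of the pair cannot be told apart without strand. The epithelial keratins KRT8 (2.78e+03 CPM in siSRSF2 cells against 3.24e+03 CPM in WT cells) and KRT18 (1.06e+03 CPM in siSRSF2 cells against 1.1e+03 CPM in WT cells) were abundant, whereas EPCAM (5.80 CPM in siSRSF2 cells against 5.00 CPM in WT cells) and KRT19 (3.18 CPM in siSRSF2 cells against 3.21 CPM in WT cells) were low. CLDN4, the other epithelial marker read, was low but higher in siSRSF2 cells (4.99 CPM) than in WT cells (1.45 CPM; log2 fold change 1.79, edgeR adjusted p = 4.85e-09).

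Of the 38 genes, 22 were higher in siSRSF2 cells and 5 were lower, while 11 did not pass an adjusted p of 0.05 (edgeR's quasi-likelihood test with Benjamini-Hochberg adjustment over 23689 tested genes, all 38 included). Among all tested genes, 59.1% passed in either direction, 30.1% higher and 29.0% lower. All 38 had a mean of at least 1 CPM, and among the 17149 tested genes at that level 70.0% passed, 32.6% higher and 37.4% lower. The members' share past the threshold, 71.1%, was thus near that of genes of like level, while their split was 57.9% higher and 13.2% lower. Libraries of the groups did not overlap for 30 of the 38 genes, 24 with siSRSF2 above and 6 with siSRSF2 below, against 63.8% of all tested genes in either direction. That share was not taken for genes of at least 1 CPM or for each direction. The median log2 fold change, siSRSF2 over WT, was 0.34, against 0.02 for all tested genes and -0.04 for those of at least 1 CPM. Changes of more than 2-fold were seen for 4 genes, IFT27, IFT140, BBS12 and TCTN1, all of them higher, where 13.4% of all tested genes were over 2-fold higher and 5.91% over 2-fold lower.

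**Figure D1:**
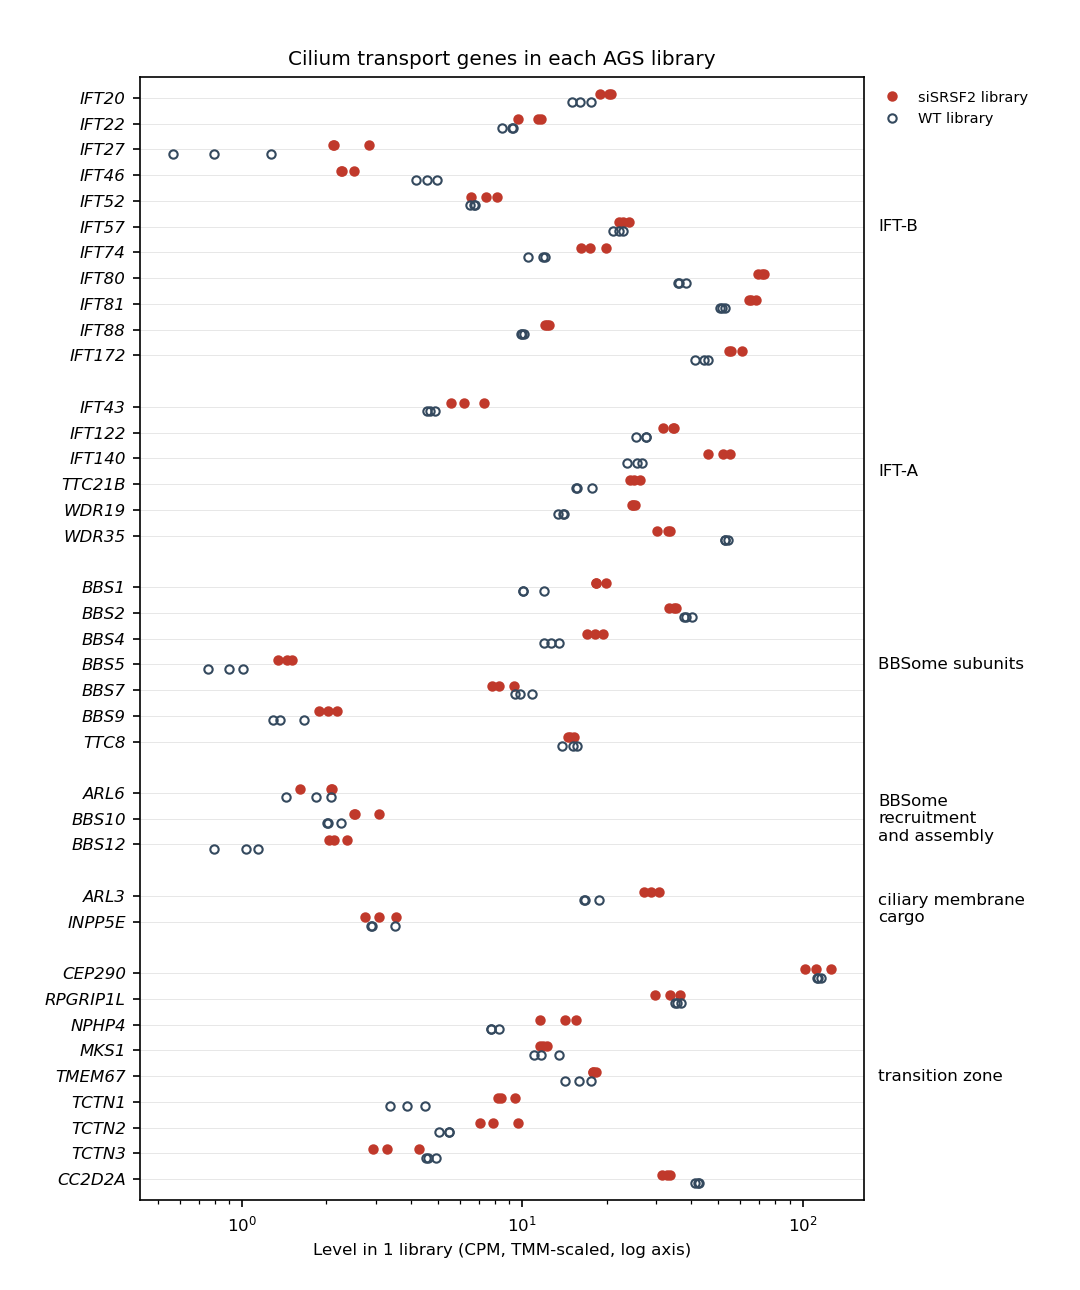
Level of each of the 38 genes in every library, in CPM on a log axis, grouped by role, with filled points for the 3 siSRSF2 libraries and open points for the 3 WT libraries. IFT27 and BBS12 show siSRSF2 points well to the right of WT, IFT46 and WDR35 the opposite, and INPP5E, TTC8 and CEP290 overlap.

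The summed level of the 38 genes was 824 to 865 CPM in siSRSF2 libraries and 704 to 717 CPM in WT libraries. IFT-B genes summed to 287 to 293 CPM in siSRSF2 libraries against 209 to 217 CPM in WT libraries, and IFT-A genes to 171 to 178 CPM in siSRSF2 libraries against 140 to 141 CPM in WT libraries. Transition zone genes, of which CEP290 held the largest share, summed to 231 to 262 CPM in siSRSF2 libraries and 239 to 243 CPM in WT libraries, and these ranges overlapped. Per kilobase of gene length (RPKM), CEP290 had the highest level in both groups, 10.9 ± 1.18 RPKM in siSRSF2 cells and 11.0 ± 0.205 RPKM in WT cells (SD, n = 3 each). The next highest in siSRSF2 cells were IFT80 (9.93 RPKM) and IFT81 (9.43 RPKM), and in WT cells IFT81 (7.39 RPKM) and WDR35 (6.81 RPKM). IFT27 was the lowest in both groups, at 0.294 RPKM in siSRSF2 cells and 0.110 RPKM in WT cells, followed by BBS5 at 0.315 RPKM in siSRSF2 cells and 0.195 RPKM in WT cells. The table's gene length merges the exons of all annotated isoforms, 8009 bases for IFT27, which lowers the level per length of genes with long or many isoforms.

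Within IFT-B, 8 of 11 genes rose, IFT46 fell, and IFT52 and IFT57 did not pass. IFT27, a small GTPase-like subunit through which the BBSome leaves the cilium, lies on chromosome 22 (36758202 to 36776256, minus strand, GRCh38). Its level was 2.83, 2.13 and 2.11 CPM in siSRSF2 libraries and 0.798, 1.27 and 0.569 CPM in WT libraries. Every siSRSF2 library lay above every WT library, and the WT values rest on 27 to 58 counts each. The log2 fold change was 1.41 (edgeR, SE 0.257, adjusted p = 3.13e-05), or 2.66-fold.

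IFT46, a subunit of the IFT-B core, lies on chromosome 11 (118544528 to 118572970, minus strand) and moved the other way. It had 2.50, 2.28 and 2.25 CPM in siSRSF2 libraries against 4.55, 4.18 and 4.97 CPM in WT libraries. The 3 siSRSF2 values were close together and all below the lowest WT value. Its log2 fold change was -0.97 (edgeR, SE 0.151, adjusted p = 3.97e-06), a level 0.512 times that of WT cells, and none of its exon bases are shared with another gene of the table.

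The promoters of this opposite-moving pair are shown from 250 bases before to 50 bases after the RefSeq start (GRCh38.p14, minus strand for both, chr22:36776070-36776369 and chr11:118565882-118566181), with the single X-box arm GTTGCC, or its reverse complement, in capitals. Neither holds a whole X-box.
IFT27: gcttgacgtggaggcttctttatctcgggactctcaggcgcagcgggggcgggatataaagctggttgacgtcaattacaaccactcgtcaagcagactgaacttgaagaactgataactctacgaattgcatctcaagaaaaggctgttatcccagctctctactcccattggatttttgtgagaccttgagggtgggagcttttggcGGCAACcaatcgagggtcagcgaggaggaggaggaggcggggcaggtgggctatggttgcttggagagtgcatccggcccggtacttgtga
IFT46: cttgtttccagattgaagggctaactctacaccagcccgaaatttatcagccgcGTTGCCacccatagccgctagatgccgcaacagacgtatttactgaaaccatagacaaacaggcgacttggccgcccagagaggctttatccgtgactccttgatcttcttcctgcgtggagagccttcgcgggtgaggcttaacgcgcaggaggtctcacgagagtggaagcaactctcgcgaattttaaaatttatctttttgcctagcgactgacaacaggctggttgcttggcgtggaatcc
Both windows hold such an arm, as do 12.2% of all promoters in the RefSeq set. A link of the arm to the change in level was not tested. The RefSeq start of IFT46 lies 7039 bases inside the edge of the gene in the count table, so transcripts from the outer edge start elsewhere.

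IFT80, a peripheral IFT-B subunit, reached 72.5, 69.3 and 71.9 CPM in siSRSF2 libraries, against 35.9, 36.1 and 38.3 CPM in WT libraries. The groups were far apart, with a log2 fold change of 0.95 (edgeR, SE 0.0527, adjusted p = 1.63e-14). IFT80 (chromosome 3, 160256986 to 160399880) shares 27.22% of its exon bases with RP11-432B6.3 on the same strand, which itself changed by 1.03, and 8.46% with SMC4 on the opposite strand, so part of its count is uncertain. IFT81, which binds tubulin together with IFT74, had 68.4, 65.4 and 64.3 CPM in siSRSF2 libraries and 53.1, 50.7 and 51.6 CPM in WT libraries. That difference was small but wider than the spread in either group, at a log2 fold change of 0.35 (edgeR, SE 0.0509, adjusted p = 1.34e-06). Its partner IFT74 averaged 17.8 ± 1.88 CPM in siSRSF2 cells and 11.5 ± 0.875 CPM in WT cells (SD, n = 3 each), a log2 fold change of 0.63 (edgeR adjusted p = 7.32e-07).

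The other IFT-B genes that passed rose by 0.29 to 0.38 on the log2 scale. IFT172, a large peripheral subunit, averaged 56.9 ± 3.37 CPM in siSRSF2 cells and 43.8 ± 2.41 CPM in WT cells (SD, n = 3 each), and IFT20, which also resides at the Golgi, ranged over 18.9 to 20.8 CPM in siSRSF2 libraries against 15 to 17.5 CPM in WT libraries. IFT88, a core subunit whose loss abolishes cilia in mice, averaged 12.3 ± 0.199 CPM in siSRSF2 cells and 10.0 ± 0.134 CPM in WT cells. The Rab-like subunit IFT22 averaged 10.9 ± 1.1 CPM in siSRSF2 cells against 8.98 ± 0.470 CPM in WT cells. IFT22's call, with a log2 fold change of 0.29 (edgeR adjusted p = 0.0139), was lost on leaving out siSRSF2 replicate 2 (0.25, adjusted p = 0.0548), siSRSF2 replicate 3 (0.23, adjusted p = 0.0683) or WT replicate 1 (0.24, adjusted p = 0.0805). IFT52 (7.39 ± 0.777 CPM in siSRSF2 cells, 6.67 ± 0.145 CPM in WT cells) had a log2 fold change of 0.15 with a 95% interval of -0.07 to 0.38. IFT57 (23.0 ± 0.901 CPM in siSRSF2 cells, 22.0 ± 0.869 CPM in WT cells) had one of 0.06 with an interval of -0.08 to 0.20.

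**Figure D2:**
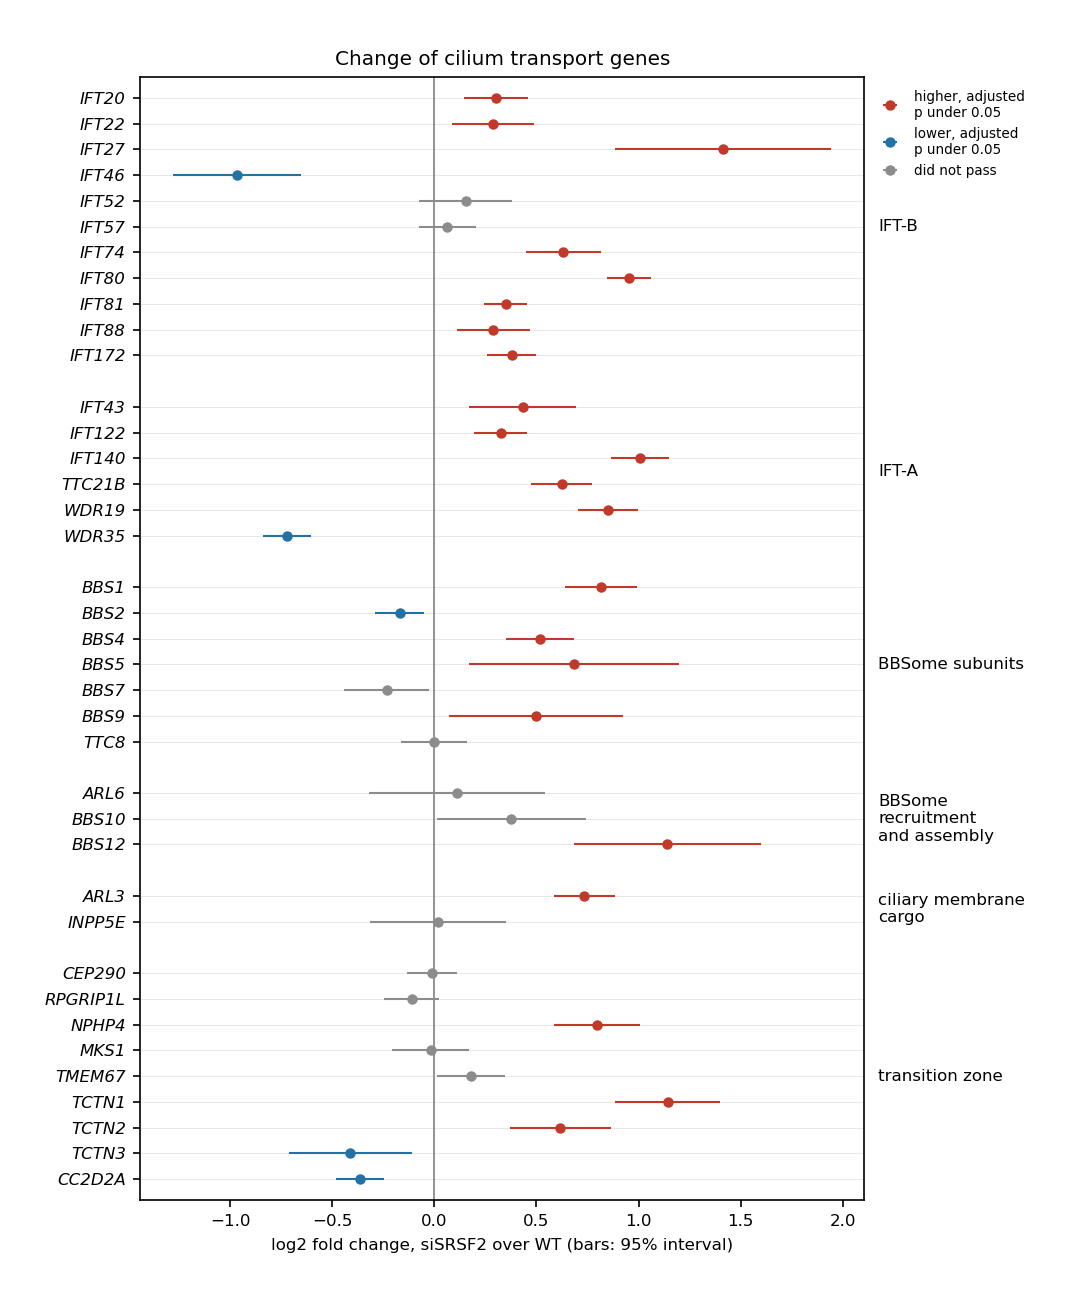
Log2 fold change, siSRSF2 over WT, of the 38 genes by role, with bars for the 95% interval of the fit and colour for the outcome of the test at an adjusted p of 0.05. Most IFT genes lie to the right of 0, with IFT46 (-0.97) and WDR35 (-0.72) as the genes farthest to the left.

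All 6 IFT-A genes passed, 5 higher and WDR35 lower. IFT140 (chromosome 16, 1510427 to 1612110, minus strand), a core IFT-A subunit, had 51.8, 55.3 and 45.8 CPM in siSRSF2 libraries and 26.8, 23.6 and 25.6 CPM in WT libraries. The lowest siSRSF2 library was well above the highest WT library, and IFT140 was 2.01-fold higher (log2 fold change 1.01 with SE 0.0680, adjusted p = 2.58e-12 in edgeR). WDR19, the core subunit also called IFT144, was 24.6, 24.8 and 25.3 CPM in siSRSF2 libraries and 13.4, 14.1 and 14.0 CPM in WT libraries. Replicates of each group were nearly equal, and the log2 fold change was 0.85 (edgeR, SE 0.0703, adjusted p = 5.6e-11).

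WDR35 (chromosome 2, 19910260 to 19990131, minus strand), the IFT-A subunit also called IFT121, had 30.1, 33.1 and 33.7 CPM in siSRSF2 libraries and 52.9, 54.2 and 53.0 CPM in WT libraries. The groups were clearly apart, with siSRSF2 below, and the log2 fold change was -0.72 (edgeR, SE 0.0570, adjusted p = 2.27e-11). TTC21B, or IFT139, rose, at 26.3, 24.3 and 25.1 CPM in siSRSF2 libraries and 15.7, 17.8 and 15.6 CPM in WT libraries (log2 fold change 0.62, edgeR SE 0.0729, adjusted p = 3.63e-08). Subunits of the same complex therefore changed in opposite directions, and WDR35 was the IFT-A gene with the highest level per length in WT cells (6.81 ± 0.0918 RPKM), while IFT140 held that place in siSRSF2 cells (6.24 ± 0.588 RPKM, against 4.12 ± 0.244 RPKM for WDR35). IFT122, the remaining core subunit, averaged 33.7 ± 1.55 CPM in siSRSF2 cells and 26.9 ± 1.26 CPM in WT cells (log2 fold change 0.32). IFT43, a small peripheral subunit, averaged 6.37 ± 0.871 CPM in siSRSF2 cells against 4.72 ± 0.160 CPM in WT cells (log2 fold change 0.43, edgeR adjusted p = 0.00461), and its call was lost without siSRSF2 replicate 3 (0.31, adjusted p = 0.0501).

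Of the 7 BBSome subunits, 4 rose, BBS2 fell, and BBS7 and TTC8 did not pass. BBS1, the subunit that the GTPase ARL6 binds, had 18.3, 19.8 and 18.3 CPM in siSRSF2 libraries and 12.0, 10.0 and 10.1 CPM in WT libraries. The groups did not overlap, and the log2 fold change was 0.82 (edgeR, SE 0.0856, adjusted p = 5.02e-09). BBS1 (chromosome 11, 66510606 to 66533627) shares 53.88% of its exon bases with CTD-3074O7.11 on the same strand and 12.35% with ZDHHC24 on the opposite strand, which changed by 0.90 and 0.89, so its own change cannot be told apart from theirs. BBS4, a subunit built of tetratricopeptide repeats, had 19.4, 18.2 and 17.1 CPM in siSRSF2 libraries and 13.5, 12.6 and 12.0 CPM in WT libraries (log2 fold change 0.52, edgeR SE 0.0807, adjusted p = 3.82e-06). It was clear of shared exons and of overlap between groups.

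BBS5, a subunit that binds phosphoinositides, was near the bottom of the range, with 1.51, 1.35 and 1.44 CPM in siSRSF2 libraries and 0.902, 1.01 and 0.759 CPM in WT libraries. These values rest on 36 to 52 counts a library, and the groups did not overlap. The log2 fold change of 0.68 (edgeR, SE 0.249, adjusted p = 0.0205) was no longer called without siSRSF2 replicate 1 (0.65, adjusted p = 0.05 after rounding) or WT replicate 3 (0.57, adjusted p = 0.084), and 21.91% of the exon bases are shared with RP11-724O16.1 on the same strand, which changed by 2.13. BBS2, a core subunit, had 33.3, 34.7 and 35.4 CPM in siSRSF2 libraries and 37.6, 40.3 and 38.5 CPM in WT libraries. The fall was slight, with a log2 fold change of -0.17 (edgeR, SE 0.0577, adjusted p = 0.0131). It was not called without siSRSF2 replicate 1 (-0.14, adjusted p = 0.062) or WT replicate 2 (-0.15, adjusted p = 0.0697), nor on scaling by library totals (-0.04, adjusted p = 0.602) or among genes of at least 1 CPM (-0.12, adjusted p = 0.0654).

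BBS9, the organising subunit of the core, averaged 2.03 ± 0.151 CPM in siSRSF2 cells and 1.44 ± 0.198 CPM in WT cells (SD, n = 3 each; log2 fold change 0.50, edgeR adjusted p = 0.0422). Its adjusted p was the largest of the 27, and the call was lost without siSRSF2 replicate 2 (0.43, adjusted p = 0.118), siSRSF2 replicate 3 (0.49, adjusted p = 0.0709), WT replicate 1 (0.45, adjusted p = 0.113) or WT replicate 2 (0.42, adjusted p = 0.143), and by DESeq2 (0.49, adjusted p = 0.0852). BBS7, also of the core, averaged 8.48 ± 0.801 CPM in siSRSF2 cells and 10.0 ± 0.752 CPM in WT cells, and its log2 fold change of -0.23 stood at the threshold (95% interval -0.44 to -0.03, edgeR adjusted p = 0.05 after rounding, not past it). It passed without siSRSF2 replicate 2 (-0.32, adjusted p = 0.0158) or WT replicate 3 (-0.29, adjusted p = 0.0394). BBS7 also passed in edgeR with RLE scaling factors (-0.24, adjusted p = 0.044) and with no filter on low counts (-0.31, adjusted p = 0.0101). The same held with thinning to equal depth (-0.30, adjusted p = 0.0249) and with the replicate number as a block (-0.24, adjusted p = 0.0455). TTC8, or BBS8, averaged 14.9 ± 0.401 CPM in siSRSF2 cells and 14.9 ± 0.896 CPM in WT cells, with a 95% interval of -0.17 to 0.16 for the log2 fold change.

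Of the 3 genes that assemble or recruit the BBSome, BBS12 passed. BBS12 and BBS10 encode chaperonin-like proteins on which the complex is assembled, and ARL6 is the GTPase that brings it to membranes. BBS12 (chromosome 4, 122732702 to 122744943, plus strand) had 2.13, 2.05 and 2.37 CPM in siSRSF2 libraries and 0.798, 1.14 and 1.03 CPM in WT libraries. Every siSRSF2 value exceeded every WT value, with a log2 fold change of 1.14 (edgeR, SE 0.223, adjusted p = 7.93e-05) on 38 to 82 counts a library. BBS10 had 2.50, 3.09 and 2.54 CPM in siSRSF2 libraries and 2.01, 2.25 and 2.02 CPM in WT libraries, which did not overlap but did not pass (log2 fold change 0.38, 95% interval 0.01 to 0.74, edgeR adjusted p = 0.07). ARL6 had 2.10, 2.08 and 1.62 CPM in siSRSF2 libraries and 2.08, 1.84 and 1.43 CPM in WT libraries, overlapping, with a log2 fold change of 0.11 (95% interval -0.32 to 0.54).

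The cargo genes were ARL3, a GTPase that releases lipid-modified proteins into the cilium, and INPP5E, a phosphoinositide phosphatase delivered that way. ARL3 (chromosome 10, 102673731 to 102714407, minus strand) rose, with 30.8, 27.2 and 28.8 CPM in siSRSF2 libraries and 18.8, 16.6 and 16.7 CPM in WT libraries. The log2 fold change was 0.73 (edgeR, SE 0.0721, adjusted p = 1.49e-09), and no exon base is shared. INPP5E had 3.09, 3.55 and 2.74 CPM in siSRSF2 libraries and 2.90, 3.5 and 2.91 CPM in WT libraries, fully overlapping (log2 fold change 0.02, 95% interval -0.31 to 0.35).

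Transition zone genes split, with 3 higher (TCTN1, TCTN2 and NPHP4), 2 lower (TCTN3 and CC2D2A) and 4 that did not pass, and a median log2 fold change of -0.01. The tectonics TCTN1, TCTN2 and TCTN3 are related proteins of the complex that contains MKS1, TMEM67 and CC2D2A. TCTN1 (chromosome 12, 110614027 to 110649430, plus strand) had 9.42, 8.41 and 8.20 CPM in siSRSF2 libraries and 4.51, 3.87 and 3.37 CPM in WT libraries. The groups were well separated, with a log2 fold change of 1.14 (edgeR, SE 0.125, adjusted p = 1.09e-08). TCTN3 (chromosome 10, 95663396 to 95694143, minus strand) had 2.94, 3.30 and 4.27 CPM in siSRSF2 libraries and 4.53, 4.90 and 4.62 CPM in WT libraries. The siSRSF2 values were scattered and only just below WT, at a log2 fold change of -0.41 (edgeR, SE 0.147, adjusted p = 0.0184). That call was lost without siSRSF2 replicate 1 (-0.31, adjusted p = 0.0987), siSRSF2 replicate 2 (-0.36, adjusted p = 0.0613) or WT replicate 2 (-0.39, adjusted p = 0.0626), and on scaling by library totals (-0.28, adjusted p = 0.114). TCTN2 averaged 8.20 ± 1.31 CPM in siSRSF2 cells and 5.34 ± 0.247 CPM in WT cells (SD, n = 3 each; log2 fold change 0.62, edgeR adjusted p = 8.29e-05).

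The promoters of TCTN1 and TCTN3 are shown because each holds a whole X-box (capitals; RefSeq, GRCh38.p14, 250 bases before to 50 after the start, chr12:110613879-110614178 on the plus strand and chr10:95693878-95694177 on the minus strand).
TCTN1: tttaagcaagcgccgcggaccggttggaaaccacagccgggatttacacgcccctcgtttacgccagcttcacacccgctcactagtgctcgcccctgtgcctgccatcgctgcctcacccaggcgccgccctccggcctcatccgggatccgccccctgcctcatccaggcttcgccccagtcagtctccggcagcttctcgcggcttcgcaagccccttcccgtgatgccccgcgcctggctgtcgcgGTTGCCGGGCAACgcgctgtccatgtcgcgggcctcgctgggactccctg
TCTN3: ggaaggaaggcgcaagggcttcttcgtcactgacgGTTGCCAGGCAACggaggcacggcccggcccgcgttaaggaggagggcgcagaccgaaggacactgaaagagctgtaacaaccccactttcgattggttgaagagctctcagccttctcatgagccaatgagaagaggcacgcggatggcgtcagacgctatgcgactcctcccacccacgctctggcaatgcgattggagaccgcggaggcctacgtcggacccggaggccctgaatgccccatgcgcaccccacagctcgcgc
The X-box begins at base 251 of the TCTN1 window, which is the RefSeq start itself, and at base 36 of the TCTN3 window. The RefSeq start of TCTN3 lies 216 bases inside the edge of the gene in the count table. Its X-box begins at -215 relative to the RefSeq start, near that edge. An X-box was searched as a pair of inverted arms 0 to 3 bases apart on either strand, and was found in 4 of the 33 members with a promoter in the RefSeq table (12.1%), against 1.30% of 27305 promoters in the table and 1.52% of the 11346 promoters of tested genes. The other 2 belong to IFT57 and IFT122.
IFT57: GTCGCCTGGTAAC
IFT122: GTTGCCAGGGGTAAC
Among members, 2 of 19 that rose, 1 of 4 that fell and 1 of 10 that did not pass held an X-box. The arm GTTGCC alone, which can lie inside an X-box, occurred in 14 of 33 members (42.4%) and in 12.2% of all promoters, and in 8 of 19 members that rose, 2 of 4 that fell and 4 of 10 that did not pass. A match to these letters does not show that an RFX protein binds there, and a link of the motif to the change in level was not tested.

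NPHP4, a transition zone protein mutated in nephronophthisis, had 15.6, 14.2 and 11.5 CPM in siSRSF2 libraries and 7.72, 7.75 and 8.24 CPM in WT libraries. The siSRSF2 libraries were spread but all above WT, with a log2 fold change of 0.80 (edgeR, SE 0.102, adjusted p = 1.78e-07). CEP290, the large protein that links transition zone microtubules to the membrane, had 126, 112 and 102 CPM in siSRSF2 libraries and 116, 113 and 112 CPM in WT libraries. The WT values lay inside the siSRSF2 range, and the log2 fold change of -0.01 had a 95% interval of -0.13 to 0.11. CC2D2A fell to 32.7 ± 1.2 CPM in siSRSF2 cells, against 42.0 ± 0.796 CPM in WT cells (SD, n = 3 each; log2 fold change -0.37, edgeR adjusted p = 3.78e-06). RPGRIP1L, a scaffold of the zone, averaged 33.3 ± 3.38 CPM in siSRSF2 cells and 35.9 ± 0.901 CPM in WT cells, with a log2 fold change of -0.11 (edgeR adjusted p = 0.154) that passed without siSRSF2 replicate 1 (-0.17, adjusted p = 0.0321). It also passed in edgeR with no filter on low counts (-0.19, adjusted p = 0.0129). MKS1 averaged 11.9 ± 0.311 CPM in siSRSF2 cells and 12.0 ± 1.30 CPM in WT cells, with a log2 fold change of -0.02 (95% interval -0.21 to 0.17). TMEM67, or meckelin, averaged 18.0 ± 0.236 CPM in siSRSF2 cells and 15.9 ± 1.64 CPM in WT cells, with a log2 fold change of 0.18 (edgeR adjusted p = 0.058) that passed without WT replicate 3 (0.25, adjusted p = 0.0213). It also passed in edgeR among genes of at least 1 CPM (0.23, adjusted p = 0.0137) and with library totals (0.31, adjusted p = 0.00189).

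**Figure D3:**
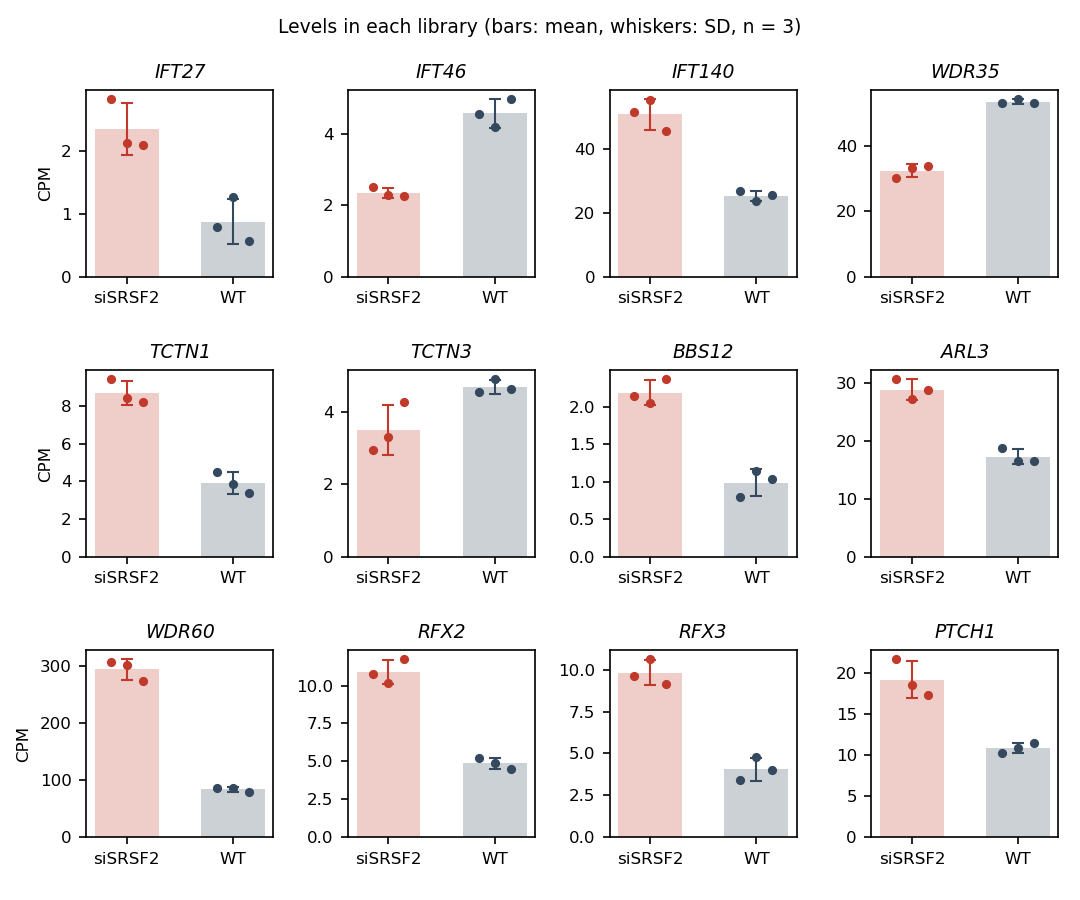
CPM of 8 members and 4 other cilium-related genes in each library (points), with bars for the mean and whiskers for the SD of 3 libraries, siSRSF2 left of WT and each panel starting at 0. The 4 other genes, WDR60, RFX2, RFX3 and PTCH1, were all higher in siSRSF2 cells. Genes of the other cilium lists that fell are not shown. Within IFT-B, IFT-A and the tectonics, one gene of each pair (IFT27, IFT140, TCTN1) is higher in siSRSF2 cells and the other (IFT46, WDR35, TCTN3) is lower.

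Other genes of the same pathway were read in lists chosen by role. Of 9 further IFT-B and BBSome genes, 3 rose and 2 fell. The IFT-B subunit TTC26 fell (16.4 ± 1.19 CPM in siSRSF2 cells against 24.8 ± 0.467 CPM in WT cells, log2 fold change -0.60), while the small BBSome subunit BBIP1 (11.7 ± 0.180 CPM in siSRSF2 cells against 6.89 ± 0.193 CPM in WT cells, 0.76) and the IFT-B subunit TTC30B (4.54 ± 1.13 CPM in siSRSF2 cells against 2.57 ± 0.0720 CPM in WT cells, 0.84) rose. BBIP1 shares 15.81% of its exon bases with PDCD4 on the opposite strand, which changed by 1.27.

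Motor genes had 7 of 10 higher and 2 lower. WDR60, an intermediate chain of dynein-2, had 306, 302 and 273 CPM in siSRSF2 libraries and 86.6, 85.8 and 78.0 CPM in WT libraries. It was 3.51-fold higher (log2 fold change 1.81, edgeR SE 0.0524, adjusted p = 7.99e-20), shares no exon base, and contributed most of the difference in summed motor level, 774 to 825 CPM in siSRSF2 libraries against 535 to 550 CPM in WT libraries. DYNC2H1, the dynein-2 heavy chain, rose with a log2 fold change of 0.34 (256 ± 5.64 CPM in siSRSF2 cells against 202 ± 2.62 CPM in WT cells). The kinesin-2 subunit KIF3C rose (0.57, 56.2 ± 2.59 CPM in siSRSF2 cells against 37.8 ± 1.13 CPM in WT cells). The 2 motor genes that fell, named here after their values were seen, are also kinesin-2 subunits: KIF3A (42.9 ± 1.78 CPM in siSRSF2 cells against 50.4 ± 1.87 CPM in WT cells, log2 fold change -0.24, edgeR adjusted p = 0.000623, not called on scaling by library totals) and KIF3B (105 ± 6.83 CPM in siSRSF2 cells against 129 ± 3.63 CPM in WT cells, -0.30, edgeR adjusted p = 8.32e-06).

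At the base of the cilium, 7 of 16 further transition zone and inversin genes rose and 3 fell. B9D1 (log2 fold change 1.09), TMEM107 (0.68) and INVS (0.51) were among those that rose. The 3 that fell, named after their values were seen, were TMEM138 (-0.72), CSPP1 (-0.38) and AHI1 (-0.31). Of 13 basal body and distal appendage genes, 6 rose and 3 fell. Those that fell, also named after their values were seen, were CEP83 (-0.51), KIAA0586 (-0.34) and CEP164 (-0.27). TTBK2, a kinase that starts cilium growth, averaged 46.4 ± 3.36 CPM in siSRSF2 cells and 19.0 ± 0.464 CPM in WT cells (log2 fold change 1.29). The satellite protein gene CEP131 averaged 108 ± 3.39 CPM in siSRSF2 cells against 51.0 ± 0.684 CPM in WT cells (1.08), and SDCCAG8 49.3 ± 1.73 CPM in siSRSF2 cells against 30.5 ± 1.27 CPM in WT cells (0.69). TTBK2 shares 16.53% of its exon bases with CTD-2036P10.3 on the opposite strand, which changed by 1.54.

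Among 11 GTPase and lipid-cargo genes, 5 rose and 4 fell. RAB8A, a GTPase of vesicle delivery to the cilium, fell to 71.5 ± 1.71 CPM in siSRSF2 cells, against 147 ± 3.65 CPM in WT cells (log2 fold change -1.04, edgeR adjusted p = 2.14e-16). RAB23, which restrains Hedgehog signalling in mice, fell too (20.3 ± 0.414 CPM in siSRSF2 cells against 29.5 ± 0.990 CPM in WT cells, -0.54), and TULP3, which carries receptors with IFT-A, rose (59.8 ± 6.40 CPM in siSRSF2 cells against 35.5 ± 2.08 CPM in WT cells, 0.75). Both GTPase genes share exon bases with an opposite gene that also fell, RAB8A 37.76% with CTD-2231E14.8 (-1.04) and RAB23 57.69% with BAG2 (-1.05).

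Genes that disassemble or hold back cilia split evenly, 4 higher and 4 lower of 9. NEDD9, a scaffold that activates the kinase AURKA at the basal body, fell to 4.41 ± 0.207 CPM in siSRSF2 cells, against 11.5 ± 0.956 CPM in WT cells (log2 fold change -1.38). HDAC6, a tubulin deacetylase, rose (31.6 ± 2.23 CPM in siSRSF2 cells against 16.7 ± 0.587 CPM in WT cells, 0.91), as did the centrosomal kinase NEK2 (86.3 ± 4.77 CPM in siSRSF2 cells against 53.5 ± 0.935 CPM in WT cells, 0.69).

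Of 12 tested Hedgehog pathway genes, 6 rose and 2 fell. The coreceptors GAS1 (23.5 ± 2.23 CPM in siSRSF2 cells against 7.60 ± 0.248 CPM in WT cells, log2 fold change 1.63) and CDON (14.5 ± 0.339 CPM in siSRSF2 cells against 4.82 ± 0.192 CPM in WT cells, 1.59) and the receptor PTCH1 (19.2 ± 2.26 CPM in siSRSF2 cells against 10.9 ± 0.591 CPM in WT cells, 0.82) were higher in siSRSF2 cells. SMO, the transducer that acts in the cilium, was barely detected, with 4, 2 and 6 counts in siSRSF2 libraries and 4, 4 and 2 counts in WT libraries, and was not tested. GLI1, a target gene of the pathway chosen here after its values were seen, had 31, 33 and 37 counts in siSRSF2 libraries and 7, 2 and 11 counts in WT libraries (edgeR adjusted p = 4.6e-06).

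Of 7 tested RFX and multiciliogenesis factors, 4 rose and 1 fell. The gene that fell, MCIDAS, named here after its values were seen, averaged 1.42 ± 0.495 CPM in siSRSF2 cells. WT cells had 3.76 ± 0.433 CPM of it (log2 fold change -1.39, edgeR adjusted p = 1.23e-06). RFX3 (9.82 ± 0.746 CPM in siSRSF2 cells, 4.06 ± 0.687 CPM in WT cells, log2 fold change 1.28) and RFX2 (10.9 ± 0.783 CPM in siSRSF2 cells, 4.86 ± 0.358 CPM in WT cells, 1.17), both regulators of cilium genes, were higher, and RFX5, known for MHC class II genes, rose by 0.38. FOXJ1, the factor of motile cilia, had 2, 3 and 8 counts in siSRSF2 libraries and 4, 0 and 4 counts in WT libraries and was not tested.

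**Figure D4:**
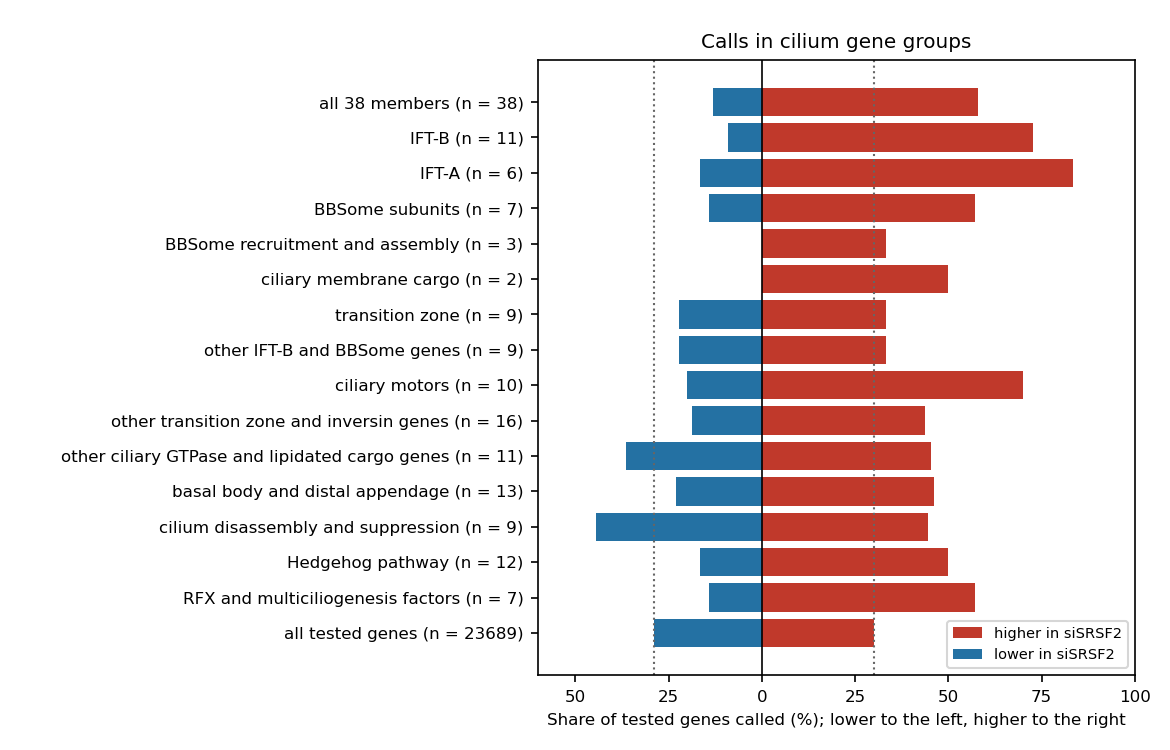
Share of tested genes past an adjusted p of 0.05 in each role of the 38 genes and in each list of other cilium genes, higher in siSRSF2 to the right and lower to the left, in percent, with dotted lines at the shares over all tested genes (30.1% higher, 29.0% lower). IFT-B, IFT-A and the motor genes reach farthest to the right, and transition zone genes lie near the line.

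Markers of other cell types and of growth were read beside these genes, and their part in the results was not tested. Multiciliated cell markers summed to 24.1 to 25.2 CPM in siSRSF2 libraries and 26.1 to 27.4 CPM in WT libraries. The highest group mean of any 1 of them was 18.3 CPM, a large part of the sum. Of 6 tested, 3 were higher, all 3 by over 2-fold, and 1 was lower, with FOXJ1 near the detection floor and PIFO at 0 in every library. Fibroblast markers summed to 42.8 to 47.3 CPM in siSRSF2 libraries against 19.8 to 20.1 CPM in WT libraries, with 4 of 5 higher, mostly COL1A1 at 35.6 CPM in siSRSF2 cells against 16.0 CPM in WT cells. Of the leukocyte markers, 1 of 2 tested genes, not CD68, was higher in siSRSF2 cells, by over 2-fold. PTPRC and CD3E were near or at 0, and CD68 was at 25.5 CPM in siSRSF2 cells against 24.1 CPM in WT cells. CD68 shares 81.73% of its exon bases with RP11-186B7.4 on the same strand, so its level is uncertain. Endothelial markers, with both tested genes lower in siSRSF2 cells, summed to 1.06 to 2.14 CPM in siSRSF2 libraries against 3.18 to 3.33 CPM in WT libraries. Of 6 proliferation genes, 4 were higher in siSRSF2 cells, TOP2A most (log2 fold change 0.84), and CCNB1 and CCNA2 were lower (-0.60 each), with sums of 2674 to 2978 CPM in siSRSF2 libraries and 2251 to 2273 CPM in WT libraries.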

How the data were processed

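Per the labels' protocols, TRI Reagent was used for RNA extraction and a SMARTER mRNA-Seq kit for library preparation. The authors deposited unnormalized counts for each gene, beside exon positions and a gene length. HISAT2 2.0.5 and featureCounts 1.5.0-p3 are named in the submitters' processing notes, which give the build as mm10, a mouse build. The table holds human names and positions: 93.1% of 36027 names unique in GENCODE release 29 (GRCh38) matched it in start and end, as did 37 of the 38 genes. The sources used here do not give strand setting, read filters or multi-mapping rules, so antisense and overlapping genes may share reads; 17 of the 38 genes share exon bases and 3 share over 20%.

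In R 4.3.3 with edgeR 4.0.16, genes were filtered (filterByExpr, minimum count 10; 23689 genes kept), scaled by TMM and compared with a robust quasi-likelihood F test with group as the only term. Benjamini-Hochberg adjustment ran over all tested genes. RPKM is the TMM-scaled CPM per kilobase of table length. The pipeline was tested on simulated data in which few genes changed, evenly in both directions. In these data 59.1% of tested genes passed, so that test does not cover scaling under a change this broad. Every replicate pair differed beyond sampling noise (chi-square of 3.83 to 8.75 per gene). Values in every library are given for up to 4 genes a role: the largest changes in both directions and the highest level per length. In other lists up to 3 genes with the smallest p are named, beside those marked as named or chosen after their values were seen. The members, lists and rules were chosen with earlier results of these data known. Alternatives used DESeq2 1.42.0, limma 3.58.1 (voom), other scaling and filters, thinning to equal depth, a replicate block, a 1.2-fold threshold and each library left out. Promoters come from RefSeq, where 33 of the 38 genes matched. The level of 1 listed marker gene is not reported here.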

Additional observations from a re-analysis of the deposited data

How the results depend on the processing

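No called member changed direction under any of 16 alternatives, and 18 of the 27 kept their call under all of them (15 higher, 3 lower). IFT20 and IFT122 lost it only when tested against a 1.2-fold change. Outside the left-out libraries, IFT88, IFT22, BBS5 and BBS9 lost their calls with no filter on low counts. The number of members called, 27, was 25 to 29 with other tests, scalings, filters and depths, and 18 against 1.2-fold. With no filter on low counts, 18 members were higher and 7 lower, against 22 and 5 in the main comparison. The number of lower members was 3 with library totals and 3 against 1.2-fold, 4 with a mean of at least 1 CPM, and 6 with RLE factors and with thinning. Leaving out 1 library gave 24 to 28 called, 19 to 22 higher and 3 to 6 lower members. The 3 came without WT replicate 2, where BBS2 (edgeR adjusted p = 0.0697) and TCTN3 (edgeR adjusted p = 0.0626) were no longer called. Why these calls depend on that library was not tested. The X-box share of 12.1% was 42.4% for the single arm, which is the shorter motif by construction. Scaling by library totals moved the median log2 fold change of all tested genes to 0.15, against 0.02 with TMM, and that of the members to 0.47, against 0.34; IFT52, IFT57, BBS10 and TMEM67 passed under it.

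The replicate number as a block gave 27 called members, 21 higher and 6 lower: BBS9 lost its call (adjusted p = 0.0594) and BBS7 gained one (adjusted p = 0.0455). Deviations of same-numbered libraries correlated at 0.0432, -0.0767 and -0.0548, so the numbers were not taken to pair the samples. SRSF2, CLDN4 and the genes named with log2 fold changes from the other cilium lists were followed across the alternatives. MCIDAS, TMEM138, CSPP1, AHI1, CEP83, CEP164 and KIAA0586 were not. The genes followed kept direction and call in every alternative that tested them, with KIF3A and KIF3B as exceptions. Both lost their calls against 1.2-fold, and KIF3A also with library totals (-0.11, edgeR adjusted p = 0.11). Low counts limit the precision for members such as BBS5, BBS9, BBS12 and IFT27, and thinning all libraries to the smallest total cost no member its call.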
